A study of Mus musculus with 12 samples.

Results

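The 10 genes described here deposit mineral in bone and cartilage matrix or keep it out, and their mRNA was followed in primary mouse chondrocytes, the cells that make cartilage matrix. They were Ibsp, Spp1, Dmp1, Enpp1, Ank, Alpl, Phospho1, Mgp, Sp7 and Bglap, found by their Ensembl IDs among 57010 IDs in the deposited tables. Counts of mRNA were available for 12 libraries in 3 groups of 4: Control, WT and SIRT5F101L. WT cells had been transfected with a plasmid labelled wild type, and SIRT5F101L cells with a plasmid for that mutant of SIRT5, a mitochondrial enzyme that removes malonyl and succinyl groups from lysines. The labels leave out how the Control cells were treated. All 12 libraries carry the genotype label wild type, and the age of the mice and the cartilage used are not given in the sources used here. The labels do not say that the libraries of a group came from separate cultures or animals, so p-values measure only the spread between these libraries, which may be technical. Replicate numbers are names in order of deposition and pair nothing.

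Mineral in bone and calcifying cartilage is calcium phosphate, and its growth depends on the balance of phosphate, which feeds it, and pyrophosphate, which blocks it. Enpp1 makes pyrophosphate outside the cell from ATP, Ank releases ATP and pyrophosphate from the cell, and Alpl, tissue-nonspecific alkaline phosphatase, cleaves pyrophosphate to phosphate. Secreted acidic phosphoproteins of the SIBLING family (Ibsp, Spp1, Dmp1, Dspp, Mepe) bind mineral, while matrix Gla protein (Mgp) keeps cartilage and vessel walls from calcifying, and articular chondrocytes normally stay unmineralized.

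The libraries held 15095357 to 24242139 counts, and 14253 genes passed the expression filter of edgeR. All 2414 X-linked, 1547 Y-linked and 37 mitochondrial IDs were at 0 in every library, so totals, shares and ranks cover the other genes only. Levels are given as CPM, counts scaled to library size by TMM, which corrects library totals for composition. A gene was called where its adjusted p was under 0.05. As a check on the labels, Sirt5 itself had 9 to 16 counts in Control, 1 to 9 in WT and 9 to 19 in SIRT5F101L libraries. Sirt5 was called in none of the 3 comparisons (edgeR adjusted p of 0.143 for WT and 0.954 for SIRT5F101L against Control, and 0.459 between the plasmid groups), so the counts of this gene do not show either plasmid. Cartilage markers were present: Col2a1, the main cartilage collagen, stood at 6719 ± 691 CPM (SD, n = 4) in Control, 1665 ± 56.2 in WT and 1312 ± 95.2 in SIRT5F101L. Acan, aggrecan, stood at 133 ± 16.0, 185 ± 6.01 and 143 ± 8.08 CPM, and Sox9, the chondrocyte transcription factor, at 142 ± 1.60, 124 ± 3.64 and 113 ± 10.9 CPM. SIRT5F101L replicate 1 stood apart from its group: between the plasmid groups edgeR called 6 genes with it and 2213 without it. Against Control, edgeR called 56.8% of all genes tested in WT and 60.7% in SIRT5F101L. Calls were therefore common in both comparisons, and a gene's call is read here by its size and direction. Median log2 fold changes over all genes were -0.01 and -0.02.

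Ibsp, Spp1 and Dmp1 lie in a cluster of SIBLING genes on mouse chromosome 5. The plus-strand windows of 250 bases before their RefSeq transcription starts (GRCm38.p6) are printed because Ibsp and Spp1 of this cluster moved in opposite directions: chr5:104299037-104299286 for Ibsp, chr5:104434861-104435110 for the upstream start of Spp1 and chr5:104202367-104202616 for the downstream start of Dmp1. The window of Enpp1, the pyrophosphate-making enzyme that rose, is chr10:24712160-24712409 on the minus strand. These coordinates belong to the sequence table only, since GRCm39 is the build named for the counts. Capitals mark matches to the motifs searched on both strands: the RUNX core TGTGGT, the CCAAT box CCAAT, AP-1 as TGANTCA, NF-kB as GGGA, any 4 bases and CC and the TATA sequence TATAAA.
Ibsp: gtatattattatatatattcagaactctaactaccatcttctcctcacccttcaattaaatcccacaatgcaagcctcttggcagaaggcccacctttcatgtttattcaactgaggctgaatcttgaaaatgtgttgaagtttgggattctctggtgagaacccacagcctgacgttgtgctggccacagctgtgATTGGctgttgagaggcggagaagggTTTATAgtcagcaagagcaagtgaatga
Spp1: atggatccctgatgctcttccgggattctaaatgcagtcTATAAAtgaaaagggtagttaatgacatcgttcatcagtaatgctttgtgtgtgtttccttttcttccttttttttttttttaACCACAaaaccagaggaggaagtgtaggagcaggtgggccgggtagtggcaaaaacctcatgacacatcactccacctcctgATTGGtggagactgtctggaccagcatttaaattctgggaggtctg
Dmp1: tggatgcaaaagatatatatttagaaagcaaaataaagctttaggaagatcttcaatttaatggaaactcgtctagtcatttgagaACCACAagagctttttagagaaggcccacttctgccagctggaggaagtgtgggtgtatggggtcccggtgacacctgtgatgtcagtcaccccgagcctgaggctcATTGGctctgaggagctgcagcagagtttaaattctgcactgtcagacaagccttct
Enpp1: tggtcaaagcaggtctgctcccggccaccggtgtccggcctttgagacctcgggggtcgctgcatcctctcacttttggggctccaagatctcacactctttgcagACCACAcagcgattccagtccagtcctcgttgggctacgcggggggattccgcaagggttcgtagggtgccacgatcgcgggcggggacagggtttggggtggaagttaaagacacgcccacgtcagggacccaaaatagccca
Each of the 3 chromosome 5 windows holds a CCAAT box on the reverse strand, at positions -54 to -50 for Ibsp, -46 to -42 for Spp1 and -57 to -53 for Dmp1, where -1 is the last base before the start. Ibsp also has a reversed TATA sequence at -28 to -23, and Spp1 has the TATA sequence at -211 to -206. These windows were chosen after the matches were seen, since they hold more of them. The second window of Spp1, at chr5:104435942-104436191, holds none of the motifs, and that of Dmp1, at chr5:104197325-104197574, holds a reversed CCAAT box at -101 to -97 and no RUNX core. In the printed windows a reversed RUNX core stands at -128 to -123 in Spp1, -164 to -159 in Dmp1 and -144 to -139 in Enpp1. Of 32841 RefSeq promoter windows of this length, 33.9% hold a CCAAT box, 14.0% a RUNX core, 12.4% the TATA sequence, 17.6% the NF-kB motif and 6.75% the AP-1 motif, so single matches are common. The table held 8 of the 10 members, not Mgp and Sp7. A match describes letters in this window and shows no binding.

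Among the mineral-binding proteins, Spp1 was far higher and Ibsp far lower in both plasmid groups than in Control. Spp1 encodes osteopontin, an acidic phosphoprotein of bone, inflamed cartilage and macrophages that binds integrins and slows crystal growth. Its level was 1831, 1919, 1999 and 2000 CPM in Control replicates 1 to 4, and 13236, 13917, 14567 and 16495 CPM in WT. In SIRT5F101L it was 16766, 15799, 14789 and 14407 CPM. All 8 plasmid libraries thus lay far above the Control libraries, and the 2 plasmid groups overlapped. By edgeR, the log2 fold change was 2.91 ± 0.08 (SE, adjusted p 5.02e-17) for WT and 2.99 ± 0.08 (SE, adjusted p 2.99e-17) for SIRT5F101L, or 7.51-fold and 7.97-fold. Spp1 made up 0.173% to 0.193% of the counts held in the tables in Control, 1.36% to 1.66% in WT and 1.48% to 1.68% in SIRT5F101L. In GENCODE M21, 18.8% of its exon sequence is shared with the predicted gene Gm42793 on the same strand, so some reads could belong to either. Per kb of exon it ranked 21 to 24 among the genes with counts in Control libraries and 1 in each of the 8 plasmid libraries.

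Macrophages and osteoclasts also make Spp1, and in bulk RNA fewer cells of a type and less RNA per cell cannot be told apart. A list of 16 macrophage and leukocyte markers summed to 237 to 276 CPM in Control, 149 to 170 in WT and 157 to 202 in SIRT5F101L. Of the 15 markers tested, 14 were lower and 1, Cd14, was higher in WT than in Control, and 12 were lower and 1 higher in SIRT5F101L, beside 28.1% and 30.7% of all genes called lower. The defining leukocyte gene Ptprc stood at 1.90 ± 0.311 CPM (SD, n = 4) in Control, 0.788 ± 0.400 in WT and 0.710 ± 0.288 in SIRT5F101L. Itgam was listed at 0, but in GENCODE M21 99.1% of its exon sequence lies inside other genes, so its 0 is not read as absence. Adgre1, which marks mouse macrophages, stood at 7.30 ± 1.37, 1.78 ± 0.510 and 1.93 ± 0.395 CPM, and Csf1r and Cd68 were lower in both plasmid groups too. Osteoclast markers, 10 genes, summed to 479 to 528 CPM in Control, 611 to 645 in WT and 588 to 630 in SIRT5F101L, to which Ctsk, the bone-resorbing cathepsin K, gave 445 ± 22.9 CPM (SD, n = 4) in Control, 314 ± 23.1 in WT and 282 ± 36.1 in SIRT5F101L. Ctsk fell in both (log2 fold changes -0.50 and -0.66, edgeR adjusted p 1.46e-05 and 4.68e-07), while Itgb3, an integrin subunit that binds osteopontin, rose from a mean of 8.38 CPM to 150 and 153, and Nfatc1 from 53.3 to 155 and 162. Atp6v0d2, a proton pump subunit of osteoclasts, stood at 1.64, 1.96 and 2.998 CPM and was called higher in SIRT5F101L and not in WT (edgeR adjusted p 0.00189 and 0.372), while between the plasmid groups it was not called (edgeR adjusted p 0.360). Of 6 osteoclast markers tested, 2 were thus higher and 1 lower in WT, and 3 higher and 1 lower in SIRT5F101L, beside 28.7% and 30% of all genes called higher. Acp5, which encodes the defining osteoclast phosphatase, was listed at 0, but its exons lie wholly inside another gene, a position described under Phospho1. Most macrophage markers were thus lower where Spp1 was higher, and the part of these cells in the level of Spp1 was not tested.

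Ibsp encodes bone sialoprotein, which nucleates mineral and marks osteoblasts and the deep, calcifying layer of cartilage. It had 183, 342, 319 and 255 counts in Control, 7, 4, 3 and 7 in WT, and 4, 0, 5 and 3 in SIRT5F101L. As a level this was 14.7 ± 3.13 CPM (SD, n = 4) in Control, 0.284 ± 0.0867 in WT and 0.146 ± 0.0991 in SIRT5F101L, with every plasmid library far below every Control library. The log2 fold changes fitted by edgeR were -5.64 ± 0.27 (SE, adjusted p 5.14e-13) and -6.50 ± 0.30 (SE, adjusted p 2.08e-13). Their size is uncertain, since the plasmid libraries hold only 0 to 7 counts each and Ibsp passed the filter only through the Control group. Summed over a group, the Control level was 51.3 times the WT level (95% exact interval 33.4 to 83.3) and 94.9 times the SIRT5F101L level (54.1 to 184), intervals that cover counting error only.

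Dmp1, a phosphoprotein of osteocytes and dentine, was scarce throughout and did not pass the filter. It had 17, 20, 13 and 7 counts in Control, 3, 2, 0 and 0 in WT, and 0, 0, 1 and 0 in SIRT5F101L. The groups did not overlap between Control and plasmid libraries. The Control level was 11.2 times that of WT (95% exact interval 4.52 to 35.8, from 57 against 5 counts) and 59.0 times that of SIRT5F101L (10.2 to 2372, from 57 against 1), counting error only. In 9 of 12 fits that left out a library Dmp1 passed the filter, only through its Control libraries, so it had to differ there and its calls in those fits support nothing. Refitted with no filter, Dmp1 had edgeR adjusted p-values of 0.000168 and 6.00e-07, and its fitted size has no firm meaning at these counts. In that fit the SE of Mgp in WT was 0.07, beside 0.13 with the filter, and its edgeR adjusted p was 2.08e-52, beside 7.92e-07. The p-values of the fit with no filter may thus not measure the spread of a gene between its libraries.

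**Figure D1:**
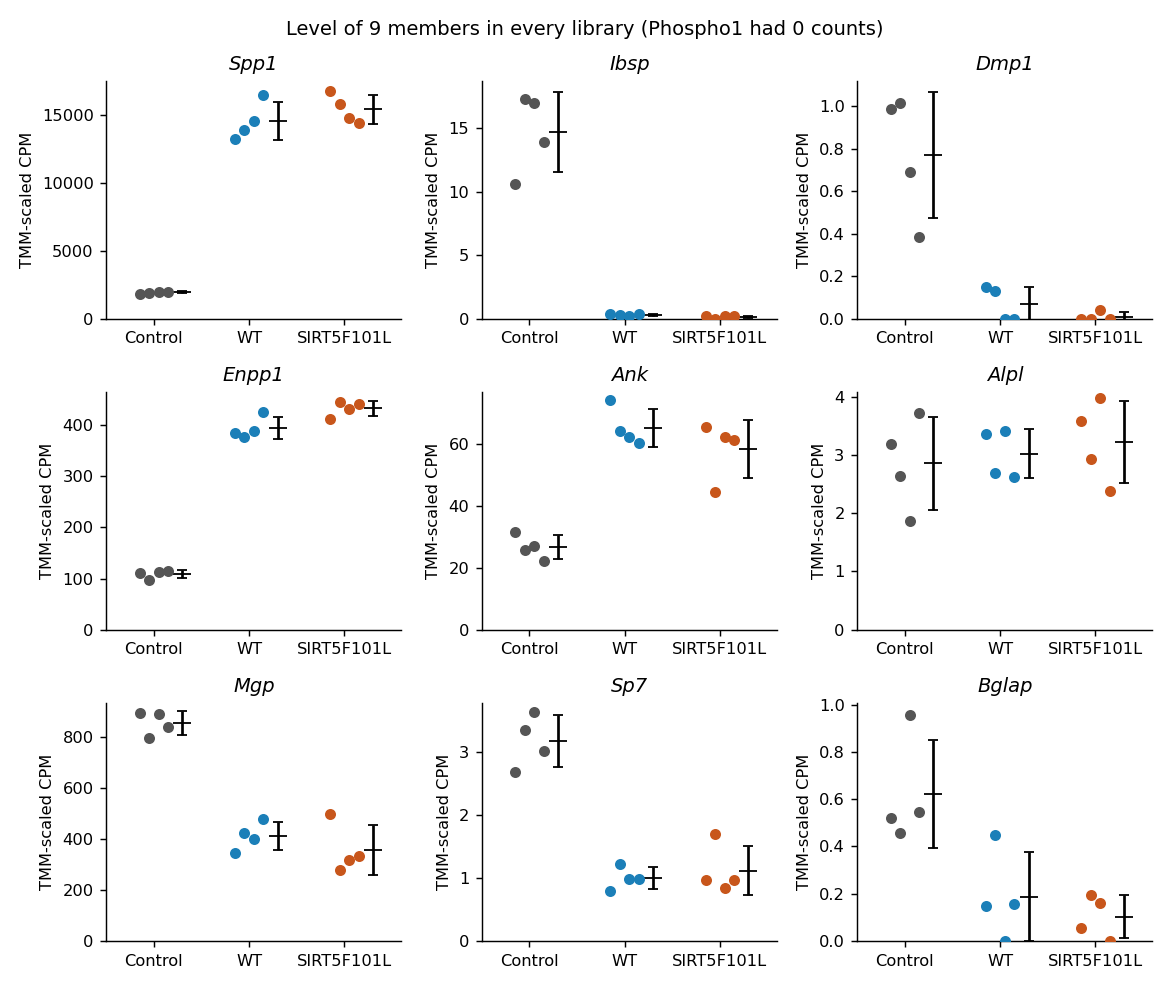
Level of 9 members in each library, in TMM-scaled CPM on linear axes that start at 0, with a point per library (Control grey, WT blue, SIRT5F101L orange) and the mean ± SD beside each group (n = 4), bars being clipped at 0. Spp1, Enpp1 and Ank were higher in all 8 plasmid libraries than in any Control library, Ibsp, Dmp1, Mgp and Sp7 were lower, and Alpl overlapped between all groups.

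The other SIBLING genes could hardly be measured. Dspp, of dentine, had 0 counts in all libraries, and Mepe, of osteocytes, had at most 3 counts in any library. Phex, which encodes a peptidase that cleaves SIBLING proteins, is X-linked and was listed at 0, so its value is not read as absence. Of 8 genes listed as SIBLING members or processors besides the 10 members, 4 were tested, of which 3 rose and 1 fell in both comparisons, beside 28.7% and 30% of all genes called higher and 28.1% and 30.7% called lower. Mmp3, stromelysin 1, a matrix metalloproteinase, rose from 16.4 ± 1.55 CPM (SD, n = 4) in Control to 1534 ± 147 in WT and 1882 ± 163 in SIRT5F101L. Fam20c, the secretory kinase that phosphorylates SIBLING proteins, rose by 0.55 and 0.47 on the log2 scale (edgeR adjusted p 7.62e-07 and 6.82e-06). Bmp1, a protease that cleaves Dmp1 and Dspp, had log2 fold changes of -0.37 and -0.46 (edgeR adjusted p 1.93e-05 and 1.43e-06).

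Along chromosome 5 the order of the genes compared was Hsd17b11, Nudt9, Sparcl1, Dspp, Dmp1, Ibsp, Mepe, Spp1 and Pkd2. Sparcl1, a secreted relative of osteonectin, fell with Ibsp, with log2 fold changes of -2.17 in WT and -2.31 in SIRT5F101L (edgeR adjusted p 9.38e-09 and 3.84e-09). Pkd2, polycystin 2, on the far side of Spp1, rose by 0.42 and 0.57 (edgeR adjusted p 1.66e-05 and 2.55e-07), much less than Spp1. Nudt9 had log2 fold changes of -0.27 and -0.53 (edgeR adjusted p 0.0300 and 0.000169), and its WT and Control libraries overlapped. Hsd17b11 had -0.19 and -0.08 (edgeR adjusted p 0.0418 and 0.399), and overlapped Control in both. Dspp, Dmp1 and Mepe were not tested in this fit.

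**Figure D2:**
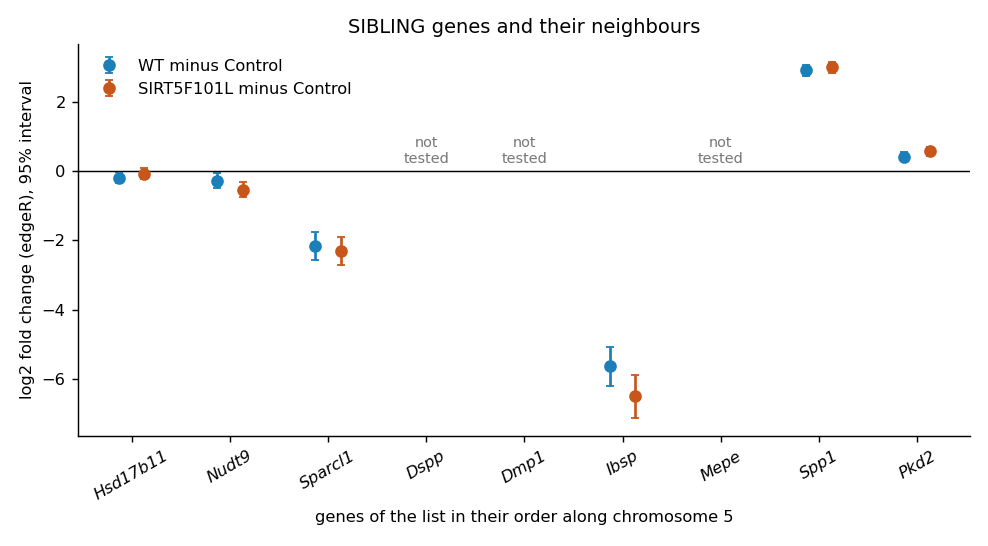
The log2 fold change (edgeR) with its 95% interval for 9 genes in their order along chromosome 5, in WT (blue) and SIRT5F101L (orange) against the shared Control libraries. Ibsp lies near -6 and Spp1 near 3, while Hsd17b11, Nudt9 and Pkd2 lie within 1 of 0, and Dspp, Dmp1 and Mepe did not pass the filter.

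The genes that raise extracellular pyrophosphate were higher in both plasmid groups, while the phosphatase that removes it was not called. Enpp1, the ectoenzyme that makes pyrophosphate from ATP, stood at 111, 97.8, 112 and 115 CPM in Control, at 386, 376, 389 and 427 in WT, and at 413, 445, 432 and 442 in SIRT5F101L. The Control libraries lay far below both plasmid groups, which overlapped with each other. In edgeR this was a log2 fold change of 1.86 ± 0.06 (SE, adjusted p 1.88e-15) in WT and 1.99 ± 0.06 (SE, adjusted p 6.32e-16) in SIRT5F101L, or 3.62-fold and 3.97-fold.

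Ank, the membrane protein through which cells release pyrophosphate and ATP, stood at 31.5, 25.8, 26.9 and 22.3 CPM in Control and at 74.0, 64.1, 62.1 and 60.1 in WT. In SIRT5F101L it stood at 65.5, 44.5, 62.3 and 61.0 CPM, replicate 2 being the lowest. No plasmid library fell into the Control range. Fitted by edgeR, Ank rose by 1.29 ± 0.11 (SE, adjusted p 6.27e-09) on the log2 scale in WT and by 1.14 ± 0.11 (SE, adjusted p 4.01e-08) in SIRT5F101L. In the GENCODE M21 annotation 88.3% of Ank exon sequence lies within the span of Otulin on the opposite strand, and 1.80% is shared with its exons, so the counting, whose strand setting is not given, may have covered only part of Ank. Otulin itself had log2 fold changes of -0.20 and -0.36, opposite in direction to Ank.

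Alpl, the alkaline phosphatase of mineralizing cells, was low and overlapped between all groups, with 55, 52, 35 and 68 counts in Control, 68, 42, 59 and 51 in WT, and 67, 45, 99 and 42 in SIRT5F101L. Its mean was 2.85 ± 0.793 CPM (SD, n = 4) in Control, 3.02 ± 0.419 in WT and 3.21 ± 0.704 in SIRT5F101L. Its log2 fold change was 0.09 in WT (95% interval -0.38 to 0.56) and 0.19 in SIRT5F101L (-0.28 to 0.65), with adjusted p-values of 0.765 and 0.486 in edgeR. The intervals allow changes up to about the width of this spread in either direction, and they do not reach the rise seen for Enpp1 or Ank.

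Since Enpp1 rose and Alpl was not called, the log2 ratio of Alpl to Enpp1 CPM was lower in the plasmid libraries. Per library it was -5.11, -5.21, -5.91 and -4.95 in Control, -6.84, -7.13, -6.83 and -7.35 in WT, and -6.85, -7.25, -6.76 and -7.54 in SIRT5F101L. Every plasmid library lay below every Control library, and the plasmid groups overlapped. The ratio of Ank to Enpp1 was -2.04 ± 0.24 (SD, n = 4) on this scale in Control, -2.60 ± 0.19 in WT and -2.91 ± 0.29 in SIRT5F101L, with the highest WT library at -2.38 and the lowest Control library at -2.37. These ratios describe mRNA of the genes, not enzyme activity or pyrophosphate.

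Phospho1, a phosphatase that frees phosphate inside matrix vesicles, had 0 counts in all 12 libraries, which is not read as absence. In GENCODE M21 all of its exon sequence lies inside other genes, chiefly Zfp652, and 89.6% of it is shared with their exons. Among autosomal protein-coding genes whose exons lie wholly inside other genes, 1122 of 1239 (90.6%) were at 0 in all 12 libraries, against 2436 of 13477 genes (18.1%) with no such overlap. Among the 541 that lie wholly inside others without sharing exon sequence, 531 (98.2%) were at 0. The same position was held by Col10a1, the collagen of hypertrophic cartilage, by the matrix genes Ogn, Omd and Chad, and by the bone regulator Dlx6, all listed at 0.

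Most other genes of phosphate and pyrophosphate handling rose. Of 11 tested, 7 rose and 2 fell in WT and in SIRT5F101L, with median log2 fold changes of 0.35 and 0.49, where 28.7% and 30% of all genes tested were called higher. Nt5e, CD73, which turns the AMP that Enpp1 leaves into adenosine and phosphate, rose from 57.6 ± 5.88 CPM (SD, n = 4) to 408 ± 32.4 in WT and 437 ± 9.78 in SIRT5F101L. The phosphate importers Slc20a2 (1.78 and 1.74 on the log2 scale) and Slc20a1 (0.59 and 0.69) also rose by edgeR's test, as did Ppa1, the pyrophosphatase of the cytosol (0.88 and 0.88). The list thus holds enzymes and carriers of both directions, and its count says nothing of net phosphate. Of genes of matrix vesicles, the annexin Anxa6 fell (-0.79 and -0.83) and Anxa5 rose (0.30 and 0.29), while Anxa2 was not called (0.12 and -0.02). Smpd3, a sphingomyelinase, fell from 1.66 CPM to 0.866 and 0.797, with overlapping groups (edgeR adjusted p 0.0440 and 0.0252).

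Mgp, the vitamin K-dependent inhibitor of calcification, was lower in both plasmid groups. It stood at 891, 793, 886 and 839 CPM in Control, 344, 422, 397 and 477 in WT, and 497, 276, 316 and 331 in SIRT5F101L. The groups did not overlap with Control, and SIRT5F101L replicate 1 lay above the other 3 libraries of its group and above all WT libraries. Against Control, edgeR gave log2 fold changes of -1.06 ± 0.13 (SE, adjusted p 7.92e-07) in WT and -1.26 ± 0.13 (SE, adjusted p 6.36e-08) in SIRT5F101L.

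Of 7 other inhibitors of mineralization that were tested, 1 rose and 4 fell in WT, and 2 rose and 4 fell in SIRT5F101L, with medians of -0.35 and -0.31, beside 28.7% and 30% of all genes called higher and 28.1% and 30.7% called lower. Ucma, a Gla protein of cartilage, fell from 39.6 ± 3.39 CPM (SD, n = 4) in Control to 3.67 ± 0.438 in WT and 2.56 ± 1.18 in SIRT5F101L. Gas6, another Gla protein, fell by 1.77 on the log2 scale in each comparison (edgeR adjusted p 2.86e-15 and 2.78e-15), and Ggcx, the carboxylase that makes Gla residues, fell by 0.35 and 0.31. The 2 secreted antagonists of bone morphogenetic proteins on the list differed: Nog fell, with log2 fold changes of -1.30 and -1.62 (edgeR adjusted p 8.98e-08 and 4.20e-09), and Grem1 rose from 357 ± 6.94 CPM to 1815 ± 51.7 and 2177 ± 69.5. Members with an inhibitory role thus split: Spp1, Enpp1 and Ank rose and Mgp fell.

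Sp7, osterix, the transcription factor that commits cells to the osteoblast lineage, was low and lower still in the plasmid groups. It had 46, 66, 68 and 55 counts in Control, 16, 19, 17 and 19 in WT, and 18, 26, 21 and 17 in SIRT5F101L. Its level was 3.16 ± 0.412 CPM (SD, n = 4), 0.992 ± 0.176 and 1.11 ± 0.388, with no overlap between Control and plasmid libraries. For Sp7 edgeR gave a log2 fold change of -1.68 ± 0.26 (SE, adjusted p 1.55e-05) in WT and -1.53 ± 0.26 (SE, adjusted p 3.40e-05) in SIRT5F101L.

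Regulators of bone formation other than Sp7 were divided, with 5 of 18 tested higher and 8 lower in WT and in SIRT5F101L, where 28.7% and 30% of all genes were called higher and 28.1% and 30.7% lower. Bmp2, a bone morphogenetic protein, rose from 0.714 ± 0.139 CPM (SD, n = 4) to 20.7 ± 1.64 and 22.7 ± 2.47. Its relative Bmp4 fell from 258 ± 9.16 to 46.0 ± 3.14 and 41.6 ± 2.73 CPM, and the homeobox gene Dlx5 from 16.1 ± 2.34 to 1.84 ± 0.501 and 2.19 ± 0.455 CPM. Runx2, the regulator upstream of Sp7 in osteoblasts, overlapped between groups at 45.8 ± 2.71, 42.6 ± 4.55 and 50.3 ± 10.8 CPM, and was not called (edgeR adjusted p 0.476 and 0.351). The Runx2 value of SIRT5F101L rests on replicate 1, at 34.1 CPM beside 55.5, 56.1 and 55.5 CPM in the other 3 libraries. Without that library Runx2 was higher than in Control by 0.28 on the log2 scale (edgeR adjusted p 0.00164), and Smad1 was also called. In that fit 7 of 18 regulators were higher and 8 lower, beside 63.2% of all genes called in either direction against Control. Sp7 fell with and without that library, by 1.53 and 1.48.

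Bglap, osteocalcin, the Gla protein of mature osteoblasts, had 9, 9, 18 and 10 counts in Control, 3, 7, 0 and 3 in WT, and 1, 3, 4 and 0 in SIRT5F101L. It did not pass the filter, and its groups barely missed overlap, the nearest libraries lying at 0.456 CPM in Control and 0.449 CPM in WT. The Control level was 3.47 times that of WT (95% exact interval 1.84 to 7.003) and 5.96 times that of SIRT5F101L (2.78 to 14.6), counting error only. With no filter, edgeR gave adjusted p-values of 0.0439 and 0.00310, which, as for Dmp1, may not measure the spread between libraries. Because 99.8% of its longest transcript has a copy of at least 95% identity in Bglap2 and Bglap3, its reads cannot be assigned with confidence. Bglap2 had 21, 35, 21 and 17 counts in Control, 3, 14, 4 and 2 in WT, and 10, 10, 9 and 1 in SIRT5F101L, and passed the filter through its Control libraries. Bglap3 had at most 2 counts in any library.

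Bone matrix genes besides Bglap were lower without exception among those tested: 10 of 10 fell in WT and in SIRT5F101L, with medians of -1.74 and -1.71, where 28.1% and 30.7% of all genes tested were called lower. Bglap2, which needed its high Control libraries to pass the filter and so gives little support, is among them. Without Bglap2 9 of 9 fell, with medians of -1.71 and -1.76. Col1a1 and Col1a2, the chains of type I collagen, fell from 12699 ± 1066 and 14253 ± 1272 CPM (SD, n = 4) in Control to 3704 ± 315 and 3829 ± 252 in WT and to 3404 ± 339 and 3583 ± 185 in SIRT5F101L. Postn, periostin, had log2 fold changes of -3.70 and -3.31, and Clec11a, a bone growth factor, of -3.51 and -3.69. The smallest change was that of Col5a2, at -0.34 and -0.40 (edgeR adjusted p 0.000547 and 8.99e-05). Chondrocyte markers fell beside them: 14 of 17 tested were lower in each comparison, and the summed level of 18 markers was 10428 to 13071 CPM in Control, 4293 to 4668 in WT and 3998 to 4357 in SIRT5F101L. Not all cartilage genes were lower: Acan, Hapln1 (link protein) and Prg4 (lubricin) rose in WT, with log2 fold changes of 0.47, 0.25 and 0.41 (edgeR adjusted p 1.78e-05, 0.00432 and 8.25e-05). In SIRT5F101L Hapln1 and Prg4 rose, by 0.18 and 0.54 (edgeR adjusted p 0.0329 and 2.57e-06), and Acan was not called (0.10, edgeR adjusted p 0.243).

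Of genes of hypertrophic cartilage, 4 of 7 tested rose in both comparisons, while 2 fell in WT and 1 in SIRT5F101L, beside 28.7% and 30% of all genes called higher and 28.1% and 30.7% called lower. Without SIRT5F101L replicate 1, Runx2, which is also on this list, made it 5 higher and 1 lower in SIRT5F101L. That fit called 63.2% of all genes against Control in either direction. Mmp13, the collagenase of hypertrophic and arthritic cartilage, rose from 86.4 ± 8.65 CPM (SD, n = 4) to 509 ± 25.1 and 612 ± 38.5. Pth1r, the receptor of parathyroid hormone, fell by 2.12 and 1.84 on the log2 scale (edgeR adjusted p 1.63e-09 and 8.82e-09). Sost, which osteocytes secrete, had 5 counts in 1 Control library and 0 elsewhere. Of 5 osteocyte-list genes tested, the widely expressed Ackr3, Cd44 and Pdpn rose and Irx5 and Tnfrsf11b fell in both.

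**Figure D3:**
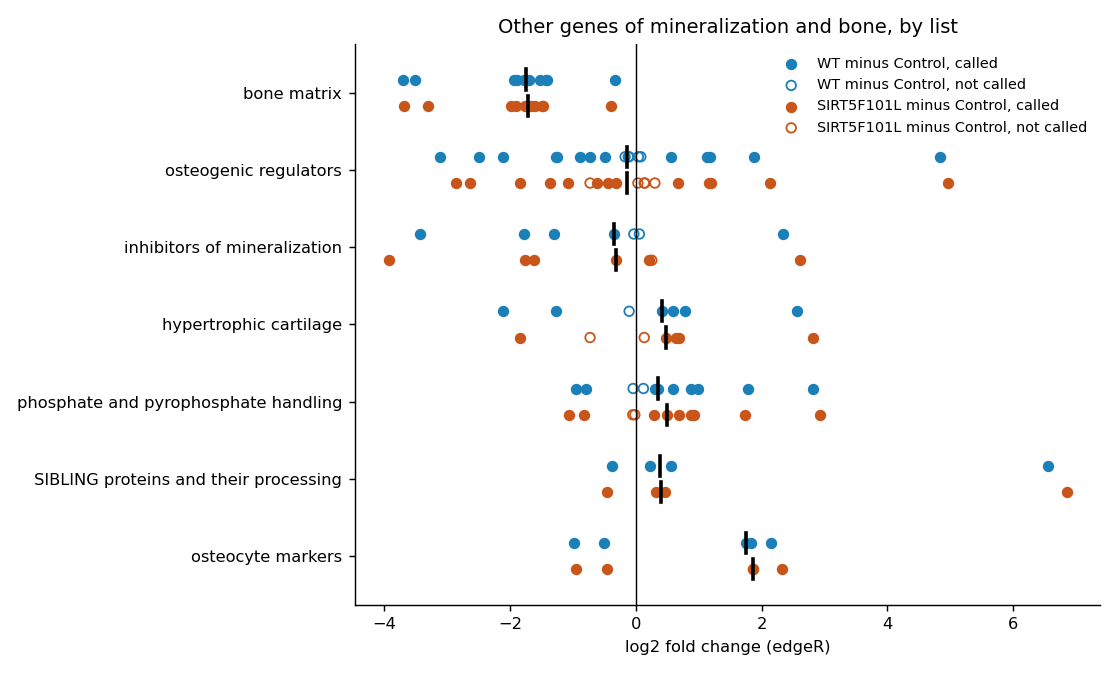
Log2 fold change (edgeR) of genes other than the 10 members in 7 lists, for WT (blue) and SIRT5F101L (orange) against Control, filled where called, with a bar at the list's median. All 10 tested bone matrix genes lie below 0, whereas regulators and inhibitors fall on both sides.

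Of the 7 members that passed the filter, 6 were called against Control in WT and in SIRT5F101L, beside 56.8% and 60.7% of all genes tested. Spp1, Enpp1 and Ank were higher and Ibsp, Mgp and Sp7 lower in both comparisons, which share their Control libraries and so are not independent. None of these 6 overlapped between Control and plasmid libraries, beside 53.5% and 51.3% of all genes. In size, 6 members changed at least 2-fold in each comparison, beside 16.7% and 17.5% of all genes. The members were chosen with earlier results of these data known, so such an excess over all genes is not independent of the data. All 6 were called in both comparisons, as were 51% of all genes. Ibsp entered these counts only through its high Control group, so it had to differ. Without Ibsp, 5 of 6 members were called, did not overlap and changed at least 2-fold in each comparison. Larger absolute log2 fold changes than that of Spp1 in WT were found in 2.46% of genes tested, than that of Enpp1 in 6.40%, Sp7 in 7.64%, Ank in 11.9% and Mgp in 15.9%. In SIRT5F101L these shares were 2.36% for Spp1, 5.63% for Enpp1, 9.42% for Sp7, 15.1% for Ank and 12.7% for Mgp. Leaving out any library, or any other setting tried, ended none of these 6 calls.

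Per kb of exon, the order of levels changed between groups. In Control it was Spp1 (1176 CPM per kb), Mgp (718), Enpp1 (10.6), Ank (7.37), Ibsp (7.12), Bglap (1.005), Sp7 (0.930), Alpl (0.707) and Dmp1 (0.278). Bglap, Sp7 and Alpl did not differ beyond their spread there, nor did Ank and Ibsp. The value of Ank is divided by its whole exon length, of which an unknown part within the span of Otulin may not have been counted, so its place among the others is uncertain. In WT it was Spp1 (8831), Mgp (345), Enpp1 (38.4), Ank (18.0), Alpl (0.749), Bglap (0.304), Sp7 (0.292), Ibsp (0.137) and Dmp1 (0.0250). SIRT5F101L kept Spp1 (9369), Mgp (299), Enpp1 (42.2), Ank (16.2) and Alpl (0.797) in these places. Ibsp thus stood above Sp7 and Alpl in Control and below both in the plasmid groups.

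The wild-type and mutant plasmids were then compared directly. None of the 7 members tested was called and all 7 overlapped between the groups, beside 4.02% of all genes that did not; edgeR called 0.0421% of all genes (6 of 14253). At an unadjusted p under 0.05 stood 1 member, Enpp1, and 1701 genes in all. Enpp1 differed by 0.13 on the log2 scale (95% interval 0.01 to 0.26, edgeR adjusted p 0.409). Spp1 differed by 0.09 (-0.07 to 0.24, edgeR adjusted p 0.635). Ank differed by -0.16 (-0.38 to 0.07, edgeR adjusted p 0.559), Alpl by 0.10 (-0.36 to 0.56, edgeR adjusted p 0.881) and Sp7 by 0.15 (-0.45 to 0.75, edgeR adjusted p 0.862). Ibsp, at -0.86 (-2.03 to 0.30, edgeR adjusted p 0.527), had too few counts in either group to tell. Mgp differed by -0.21 (-0.48 to 0.06, edgeR adjusted p 0.515). Without SIRT5F101L replicate 1, the library highest in Mgp, it differed by -0.41 with an edgeR adjusted p of 0.000501, and was then the only member called, among 2213 genes. A p that misses the threshold does not show that the plasmids act alike on the other members.

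**Figure D4:**
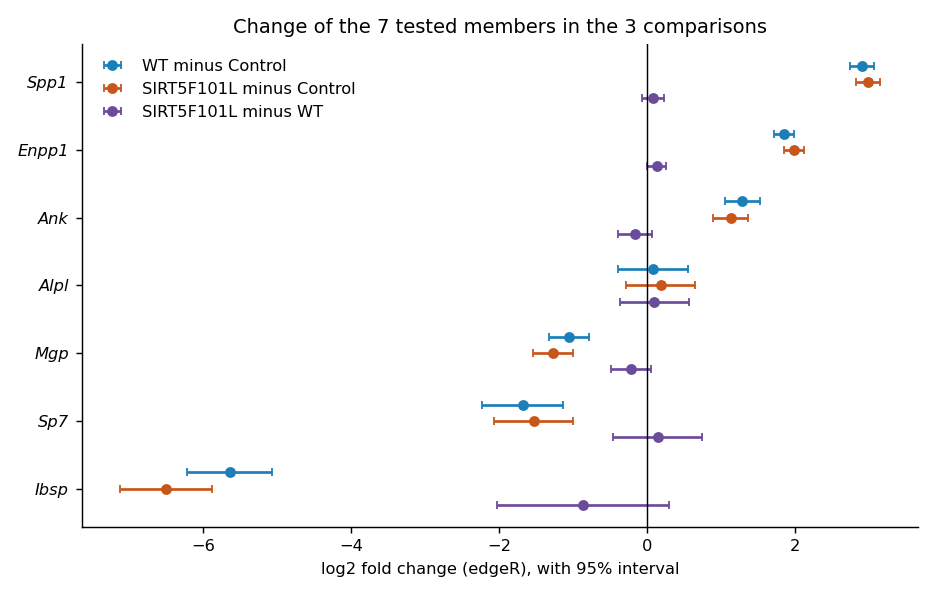
Log2 fold change (edgeR) with its 95% interval for the 7 members that passed the filter, for WT (blue) and SIRT5F101L (orange) against Control and for SIRT5F101L against WT (purple). The intervals of both comparisons with Control lie on the same side of 0 for 6 members, those of Alpl include 0, and the purple interval of each member except Enpp1, at 0.01 to 0.26, includes 0.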

How the data were processed

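Messenger RNA of 12 libraries of primary mouse chondrocytes (4 Control, 4 WT, 4 SIRT5F101L) was captured with oligo-dT beads, per the labels' protocols. The authors deposited raw counts per Ensembl gene ID, 1 table per library, without a header. The submitters' processing notes name FastQC 0.11.9, HISAT2 2.2.1, HTSeq 2.0.2, DESeq2 1.38.3 and the builds GRCm39 and mm39, with no role or order. The counting's strand, overlap and multi-mapping settings and its annotation are not given in the sources used here.

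Symbols were matched for 52029 of 57010 IDs. Counts were fitted in edgeR 4.0.16 (R 4.3.3) with TMM scaling, filterByExpr by group and a quasi-likelihood model with a mean per group over all 12 libraries (9 residual degrees of freedom, biological coefficient of variation 9.18%). Tests were 2-sided, with Benjamini-Hochberg adjustment over 14253 genes. The pipeline was run on simulated data with 200 genes changed in the SIRT5F101L group. Far more genes were called against Control in the real data, so the simulation does not test that setting. Exon lengths, overlaps and copies (BLAST 2.17.0) came from GENCODE M21, an older annotation than the build named. Intervals of count ratios are exact binomial intervals, for counting error only.

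The members and lists were chosen with earlier results of these data known. Named were all members, and from each list up to 3 other genes called in both comparisons with Control, of at least 5 CPM on average, with the largest changes. Other genes in the text were fixed by name (Runx2, Col1a1, Col10a1, Slc20a1, Nt5e, Fam20c, Bglap2, Bglap3, Dspp, Mepe, Phex, Sost, Sirt5 and the cell markers Col2a1, Acan, Sox9, Ptprc, Adgre1, Cd68, Csf1r, Acp5 and Ctsk). Any further gene was named after its values were seen. Fibroblast markers (10 genes) summed to 8055 to 9267 CPM in Control, 5520 to 5771 in WT and 6049 to 6389 in SIRT5F101L, muscle markers to 10.5 to 11.3, 2.76 to 4.79 and 2.55 to 4.22, endothelial markers to 4.24 to 4.75, 4.43 to 4.99 and 3.77 to 5.55, and adipocyte markers to 202 to 226, 84.9 to 91.5 and 86.3 to 104. Osteocyte markers (10 genes) summed to 1893 to 2063, 2220 to 2344 and 2289 to 2519 CPM. Alternatives were RLE and upper-quartile scaling, 2 other filters, a robust prior, fits of 8 libraries, DESeq2 1.42.0, a length offset (loess, span 0.5), leaving out each library and, added after seeing the data, leaving Spp1 out of the counts before scaling.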

Additional observations from a re-analysis of the deposited data

Results flagged for a closer look

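Across the 27 groups of values screened for a library far from the others, of which chance alone gives about 1.35, 2 stood out. SIRT5F101L replicate 2 held Sp7 at 1.69 CPM, where the other 3 libraries of its group lay between 0.842 and 0.964 CPM, and it still lay below every Control library. SIRT5F101L replicate 3 held Dmp1 at 0.0401 CPM, which is a single count, where the others of its group held 0.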

How the results depend on the processing

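Against Control, the calls of Spp1, Enpp1, Ank, Ibsp, Mgp and Sp7 kept their direction and their side of the threshold under each of the alternatives that gave them a value, up to 21. For Ibsp this gives no support where a filter was used, since it passed only through its Control libraries and had to differ. Alpl stayed uncalled, and its log2 fold change turned negative in WT against Control without Control replicate 3 (-0.072 to 0.24 over the libraries left out) and between the plasmid groups without SIRT5F101L replicate 3 (-0.027 to 0.22). Sp7 turned negative between the plasmid groups without SIRT5F101L replicate 2 (-0.10 to 0.27). The cause was not tested.

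Counts of genes called between the plasmid groups moved from 6 to 354 with no filter, 39 with DESeq2, 15 with a length offset, and 2 with a robust prior or a fit of the 8 libraries. Leaving out 1 library gave 0 to 2213 genes and 0 to 1 members, the highest values without SIRT5F101L replicate 1, when Mgp was called. Without that library edgeR called 15.2% of all genes between the plasmid groups, and beside that share 3 of 18 osteogenic regulators (Runx2 higher, Atf4 and Twist1 lower), 2 of 11 genes of phosphate handling (Xpr1, Anxa2), 2 of 10 of bone matrix (Postn, Serpinh1), 2 of 7 inhibitors (Grem1, Ucma), 2 of 7 of hypertrophic cartilage (Mmp13, Runx2), 2 of 4 tested neighbours of the SIBLING genes (Pkd2, Nudt9) and 1 of 4 SIBLING-processing genes (Mmp3) were called, against 0 in each list with it. Of chondrocyte markers 6 of 17 were then lower, Col2a1 and Acan among them, against 1 (Col11a2) with that library. Without it Ctsk was also lower, and Dcn, Pdgfra and Lpl were higher. Against Control, 6 to 7 members were called when 1 library was left out, Dmp1 being the added one, through its Control libraries only. Without SIRT5F101L replicate 1, edgeR called 60.2% of all genes in WT and 63.2% in SIRT5F101L against Control. With no filter 8 members were called (Dmp1 and Bglap added, on few counts), beside 8365 genes in all in WT. The p-values of that fit may not measure the spread of a gene. No paired analysis was possible because the labels give the groups no shared replicate numbers.

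Depth limits Dmp1, Bglap, Mepe and the plasmid-group values of Ibsp, which rest on few counts. Phospho1, which lies inside other genes, and the X-linked Phex were listed at 0 and could not be read.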
